A study of Mus musculus with 32 samples.

Results

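RNA tags in coding sequence (CDS) are the RNA ends of RADICL-seq interactions that fall in the translated part of a protein-coding exon. RADICL-seq joins an RNA to nearby DNA through a bridge adapter inside fixed nuclei, and each sequenced chimera gives an RNA tag and a DNA tag of 27 nt. An interaction was taken as a distinct combination of the RNA tag's chromosome, position, strand and gene with the DNA tag's chromosome and position, and it was a member when the region listed for its RNA tag was CDS. Of 25231081 listed interactions in 15 libraries, 1483635 were CDS interactions and 19827416 had their RNA tag in an intron. The CDS interactions per library ranged from 28846 to 175145, out of 251802 to 2832717 interactions of any kind.

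The libraries came from 2 mouse cell lines. R08 embryonic stem cells (mESC) were fixed with 1% formaldehyde (1FA, 3 libraries) or 2% formaldehyde (2FA, 3 libraries). Others were given 5 µg/ml actinomycin D, an inhibitor of transcription elongation, for 4 h before fixation, per the paper with 1% formaldehyde (ActD4, 2 libraries). Oli-neu oligodendrocyte progenitor cells (mOPC), a line immortalised with t-neu, an activated form of the receptor tyrosine kinase Erbb2, were fixed with 1% formaldehyde (1FA, 3 libraries). In the non-protein-mediated protocol (NPM, 2 libraries of each line), fixation was also with 1% formaldehyde, per the paper. There a proteinase digestion and the reversal of crosslinks preceded the RNA ligation, so the ligations did not take place inside fixed nuclei. Replicates were batches of cells of different passages of 1 line each, so p-values measure the spread between batches of that line. The RNA markers matched the labels: CDS interactions of the mESC marker list made up 3554 to 3916 CPM (CDS interactions scaled to a library total of 1000000) in the mESC 1FA libraries and 191 to 442 CPM in mOPC 1FA, and the mOPC marker list 191 to 248 CPM in mESC 1FA and 12154 to 14522 in mOPC 1FA. Because an interaction is listed only when its transcript and 25-kb DNA bin passed a test, and the deposited p-value of a pair is the same in all replicates of a group, replicates are not independent in the pairs they list, the totals are not sequencing depths and a gene listed at 0 is not shown to be absent.

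Coding sequence lies in exons, which splicing joins into the messenger RNA (mRNA), while introns are cut out of the primary transcript, largely while the RNA polymerase is still on the gene. Intron tags therefore come from RNA that was not yet spliced, or from introns that persist, whereas CDS tags can come from unspliced RNA and from spliced mRNA alike. A tag that crosses the junction between exons has no unbroken match in the genome, so with contiguous alignment a tag that reaches past an exon edge is read mainly from unspliced RNA.

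The positions most often taken by a CDS tag show what a member is at the base level. The CDS interactions used 1060285 distinct RNA tag positions, 81.1% of them once, and the 10 most frequent positions held 0.136% of the interactions. The mm10 sequences of 6 of these positions, centred on the tag and written 5′ to 3′ on the RNA's strand with coding bases in capitals, are shown here as examples, picked after their counts were seen. The other 4 were a second position in Rpl12 and positions in Ext1, Dst and Kat6b.
Rpl12, chr2:32961894-32961920, plus strand: GGGCCTTGGCTGCCACGTGTGTAAGAG
Tmem131, chr1:36939325-36939351, minus strand: gccaggATGGGGAAGCGGGCGGGAGGA
Gli2, chr1:119002108-119002134, minus strand: AGCCAAGAGTGGTCTCTTGGAGGACAG
Adam23, chr1:63447778-63447804, plus strand: GAAGACAACACATTGCAACAAAATAGC
Dip2b, chr15:100157203-100157229, plus strand: AAGGCCGCCAGATGACCCCAGTGAAAG
Snd1, chr6:28480559-28480585, plus strand: ccacacATGGCCTCCTCCGCGCAGAGC
The Tmem131 and Snd1 windows hold the start codon.

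At the Rpl12 position, in the gene of a protein of the large ribosomal subunit, 68, 97 and 79 interactions were listed in the mESC 1FA libraries, 73, 58 and 65 in 2FA, 4 and 2 in ActD4, 0 and 0 in mESC NPM, 6, 5 and 15 in mOPC 1FA, and none in either mOPC NPM library. The position was used most in mESC 1FA and 2FA and was not listed in any NPM library. In the mESC 1FA libraries this 1 position carried 68 of 147, 97 of 195 and 79 of 169 CDS interactions of Rpl12. The Gli2 position, in the gene of a transcription factor of Hedgehog signalling, was listed 57, 22 and 23 times in mESC 1FA, 30 and 14 times in ActD4 and not at all in NPM or mOPC. The Dip2b position was listed in both lines, with 50 interactions in mESC 1FA and 73 in mOPC 1FA and with 0 in mESC NPM and 1 in mOPC NPM. None of the 10 positions had more than 2 CDS interactions in the NPM libraries of a line. The positions were chosen for their frequency over all libraries and the 6 with their counts in view, so the counts are a description.

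CDS interactions were a small part of CDS and intron interactions in 1FA and 2FA and a larger part after actinomycin D and in NPM. The CDS share was 7.47%, 5.57% and 5.71% in mESC 1FA (6.25% ± 1.06, SD, n = 3), and 4.56%, 3.99% and 3.22% in mOPC 1FA (3.92% ± 0.674, SD, n = 3). It was 13.62% and 14.04% in ActD4 (13.8% ± 0.302, SD, n = 2). It was 24.5% and 19.5% in mESC NPM (22.0% ± 3.53, SD, n = 2) and 17.3% and 14.1% in mOPC NPM (15.7% ± 2.21, SD, n = 2). Every ActD4 and NPM library lay above every 1FA library of its line, and every mOPC 1FA library lay below every mESC 1FA library. The 2FA libraries gave 5.72%, 4.24% and 3.99% (4.65% ± 0.934, SD, n = 3), which overlapped mESC 1FA. The mESC 1FA and 2FA libraries with the same replicate number deviated together, and within these pairs the share was lower in 2FA in 3 of 3.

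**Figure D1:**
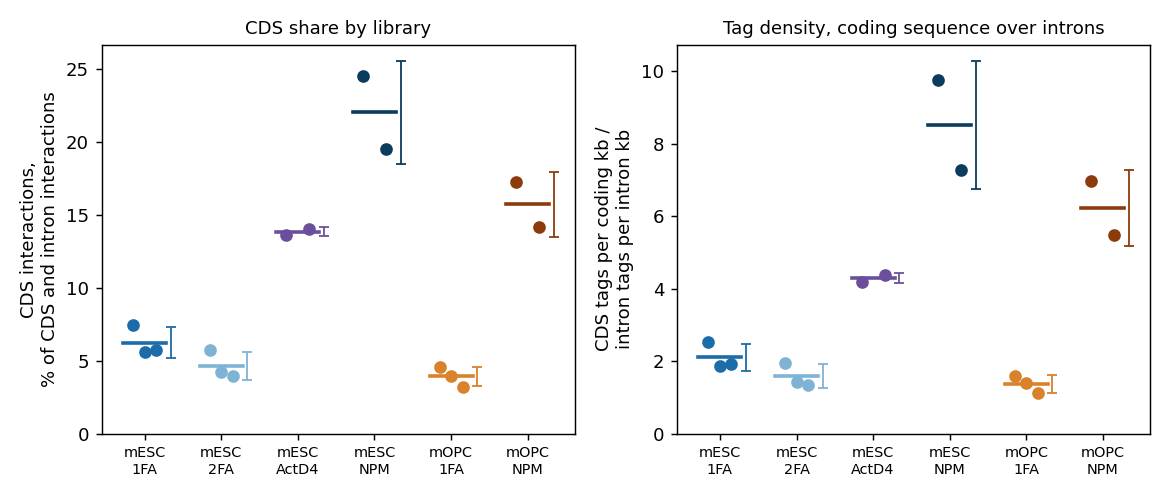
The left panel plots the CDS share of CDS and intron interactions (%) of each of the 15 libraries by group, and the right panel the ratio of CDS tags per coding kb to intron tags per intron kb. Points are libraries, horizontal lines group means and vertical bars 1 SD; the mESC NPM libraries are highest at 24.5% and 19.5%, and mOPC 1FA lowest at 3.22% to 4.56%.

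The share was 15.8 percentage points higher in mESC NPM than in mESC 1FA and 11.8 points higher in mOPC NPM than in mOPC 1FA. Each of these 3 against 2 designs cannot go below p = 0.2 in an exact two-sided permutation test over libraries, which is the p both gave (adjusted p = 0.267). Over both lines, with labels permuted within each line, NPM was 13.8 points above 1FA (exact permutation p = 0.02, the smallest possible, adjusted p = 0.08). ActD4 was 7.58 points above mESC 1FA (exact permutation p = 0.2, the smallest possible, adjusted p = 0.267). mOPC was 2.33 points below mESC in 1FA (exact permutation p = 0.1, the smallest possible, adjusted p = 0.267) and 4.31 points below over 1FA and NPM together (exact permutation p = 0.0167, the smallest possible, adjusted p = 0.08). 2FA differed from 1FA by -1.60 points (exact permutation p = 0.3, adjusted p = 0.333, and p = 0.25 within pairs, the smallest that 3 pairs allow), and mOPC NPM from mESC NPM by -6.30 points (exact permutation p = 0.333, the smallest possible, adjusted p = 0.333). The NPM difference in mOPC minus that in mESC was -3.98 points, with an exact permutation p of 0.66. No share in these comparisons passed 0.05 after Benjamini-Hochberg adjustment, and no direction of the CDS share reversed under any alternative run. The sizes moved more. With each transcript and bin counted once, the difference was -5.48 points between the lines in 1FA, -3.53 for 2FA, 16.4 for NPM in mOPC and -1.79 between the NPM groups. Without own-gene contacts it was 5.94 for NPM in mOPC, -10.98 between the NPM groups and -6.71 between the lines over 1FA and NPM. Without mESC 1FA replicate 1 the 2FA difference was -0.991 points. A lower intron share and a higher CDS share cannot be told apart here, nor can fewer RNA molecules in the cells and fewer of them caught near DNA.

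Per length, coding sequence was tagged more densely than introns in all 15 libraries. In each library, protein-coding genes with introns were used if they had a listed CDS or intron tag there. Over these genes, the density of CDS tags per coding kb over that of intron tags per intron kb was 2.54, 1.86 and 1.92 in mESC 1FA, 1.96, 1.44 and 1.35 in 2FA, and 4.19 and 4.39 in ActD4. It was 9.76 and 7.28 in mESC NPM, 1.59, 1.40 and 1.11 in mOPC 1FA and reached 6.97 and 5.49 in mOPC NPM. The lowest values were near 1 and the NPM values were the highest of each line. On the log2 scale the ratio was 2.02 higher in mESC NPM than in mESC 1FA and 2.19 higher in mOPC NPM than in mOPC 1FA, and 2.10 higher over both lines (exact permutation p = 0.02, the smallest possible, adjusted p = 0.08). The listed intron tags per intron kb were 2.71, 2.47 and 2.92 in mESC 1FA against 0.41 and 0.62 in mESC NPM, while the CDS tags per coding kb were 6.87, 4.60 and 5.59 against 3.97 and 4.53. In mOPC the intron density was 2.36, 2.30 and 2.23 in 1FA against 0.98 and 0.95 in NPM, and the CDS density 3.76, 3.21 and 2.48 against 6.81 and 5.23. In ActD4 the intron density was 0.64 and 0.38 and the CDS density 2.70 and 1.69. These separate densities are counts not scaled to the library's list. The genes used also differed, with 12079 in mESC 1FA replicate 1 and 7811 in ActD4 replicate 2. They therefore do not show which of the CDS and intron levels changed.

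The distance from the RNA tag to the DNA tag separated the NPM libraries from all others. In mESC NPM 55.9% and 59.5% of CDS interactions had their DNA tag within 1 kb, and in mOPC NPM 59.1% and 63.7%. The same share was 5.49%, 8.94% and 6.45% in mESC 1FA, 7.65%, 16.7% and 12.1% in 2FA, 16.5% and 15.2% in ActD4, and 14.6%, 7.66% and 12.03% in mOPC 1FA. No NPM library overlapped a library of another protocol. In the 1FA libraries most CDS interactions lay between 10 kb and 1 Mb, with means of 33.4% at 10 to 100 kb and 38.5% at 100 kb to 1 Mb in mESC and of 31.6% and 31.5% in mOPC. In NPM the class of 100 kb to 1 Mb held 0.231% in mESC and 0.505% in mOPC. ActD4 was shifted towards short distances against mESC 1FA, with 22.4% at 100 kb to 1 Mb and 0.538% at 1 to 10 Mb, where mESC 1FA had 5.35%. mOPC 1FA held 7.30% at 1 to 10 Mb and 1.40% beyond 10 Mb, against 0.593% beyond 10 Mb in mESC 1FA. Neither shift was particular to CDS tags. Intron tags had means of 43.3% at 100 kb to 1 Mb and 10.5% at 1 to 10 Mb in mESC 1FA, against 26.6% and 1.62% in ActD4. In mOPC 1FA introns held 14.7% at 1 to 10 Mb and 3.16% beyond 10 Mb, where mESC 1FA had 2.05% beyond 10 Mb.

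**Figure D2:**
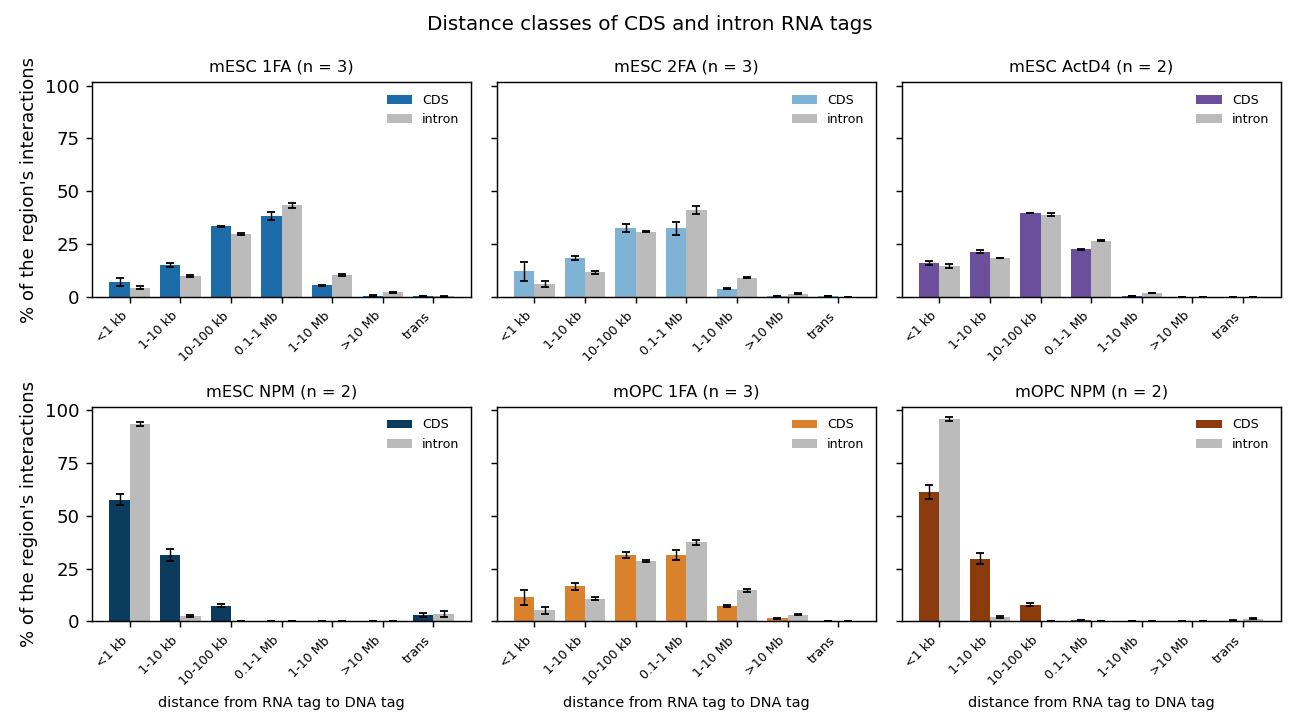
Percentage of the CDS (coloured) and intron (grey) interactions of a library in each of 7 classes of distance between the tags, with trans meaning another chromosome. Bars are group means and error bars 1 SD over 2 or 3 libraries; within 1 kb the CDS bar exceeds the intron bar in 1FA and is lower in NPM, where CDS tags fill the 1 to 10 kb and 10 to 100 kb classes instead.

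CDS and intron tags of the same libraries were distributed differently. In NPM 92.7% to 94.1% of the mESC and 95.2% to 96.5% of the mOPC intron interactions lay within 1 kb, and the CDS share in that class was 35.6 points lower on average in mESC and 34.4 points lower in mOPC. The CDS interactions were instead spread over 1 to 10 kb, with 31.4% in mESC NPM and 29.7% in mOPC NPM against intron shares of 1.65% to 2.92%, and over 10 to 100 kb, with 7.52% and 7.90% against 0.247% to 0.332%. In the libraries of the other protocols the difference had the other sign, with CDS 2.59 points above introns within 1 kb in mESC 1FA, 6.23 in 2FA, 1.34 in ActD4 and 6.15 in mOPC 1FA. The CDS minus intron difference within 1 kb changed by -39.4 points from 1FA to NPM over both lines (exact permutation p = 0.02, the smallest possible, adjusted p = 0.16). Over all 15 libraries CDS was above introns within 1 kb in 11, and the mean difference of -6.17 points gave an exact sign-flip permutation p of 0.179. This mean pools NPM with the other protocols, which had the opposite sign, so it describes neither set. With own-gene contacts left out, CDS lay above introns within 1 kb by 4.00 points over the 15 libraries (exact sign-flip permutation p = 6.1e-05, the smallest possible). The difference between NPM and 1FA then turned to 13.8 points.

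Trans interactions were rare among CDS tags, and in mESC most of them fell in 1 bin of the genome. Their share was 2.17% and 3.71% in mESC NPM, 0.356% and 0.423% in mOPC NPM, 0.327%, 0.547% and 0.291% in mESC 1FA and 0.171%, 0.170% and 0.217% in mOPC 1FA. It was 0.164%, 0.399% and 0.199% in 2FA and 0.081% and 0.073% in ActD4. Intron tags of mESC 1FA had lower trans shares of 0.119%, 0.197% and 0.099%, and in mESC NPM they had higher ones of 2.55% and 4.68%. CDS exceeded introns in trans share in 10 of 15 libraries, with a mean difference of -0.121 points (exact sign-flip permutation p = 0.305). This mean pools the NPM libraries, where CDS lay below introns in each, with those of the other protocols. The CDS trans share was 2.55 points higher in mESC NPM than in mESC 1FA (exact permutation p = 0.2, the smallest possible), and 0.204 points higher in mOPC NPM than in mOPC 1FA. A single 25-kb bin, chr17:39825001-39850000, was contacted in trans by 2271 transcripts in the NPM libraries, against 188 for the next bin. It held 83.3% and 94.4% of the trans CDS interactions of mESC NPM, 92.7% to 97.3% of those of mESC 1FA, 34.1% and 47.1% in mOPC NPM and 13.1% to 21.1% in mOPC 1FA. Without it the mESC difference was 0.276 points and the mOPC difference 0.0767 points, and mOPC NPM differed from mESC NPM by -0.0631 points where with it the difference was -2.55. The change of CDS minus intron from mESC 1FA to mESC NPM went from -0.922 to -0.0854 points without the bin. From mOPC 1FA to mOPC NPM it went from -0.886 to -0.742 points. Without that bin the CDS trans share was also higher in mOPC 1FA than in mESC 1FA, by 0.136 points, where with it the difference was -0.203 points.

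In NPM nearly all CDS interactions were with the RNA's own gene, at 95.7% to 97.3% in mESC and 98.9% to 99.1% in mOPC, against 32.2% to 35.6% in mESC 1FA, 38.12% to 44.98% in mOPC 1FA and 57.4% to 58.2% in ActD4. Intron interactions had similar own-gene shares, at 97.2% and 95.0% in mESC NPM and 98.4% and 98.1% in mOPC NPM. In mESC 1FA the intron share was 31.8% to 34.5%, so this change was not particular to CDS tags. For own-gene contacts 1 to 100 kb away, the DNA tag lay in an exon of that gene in 96.8% and 93.9% of the mESC NPM and in 96.0% and 91.5% of the mOPC NPM interactions. The share was 21.8%, 23.5% and 21.8% in mESC 1FA, 24.96%, 27.75% and 25.36% in 2FA, 24.1% and 24.2% in ActD4 and 27.03%, 23.13% and 27.79% in mOPC 1FA. Exons make up only 15.97% to 16.71% of the length of those genes in mESC 1FA and 18.4% to 19.2% in NPM. The NPM values were thus far above the length of exon available, and those of the other groups moderately above it. NPM differed from 1FA by 70.4 points over both lines (exact permutation p = 0.02, the smallest possible, adjusted p = 0.192).

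Placed on the spliced mRNA, these DNA tags lay on 1 side of the RNA tag in NPM. The DNA tag was 5′ of the RNA tag in 99.8% and 99.9% of the exon pairs of mESC NPM and in 99.7% and 99.8% of those of mOPC NPM. The share was 36.3%, 36.2% and 36.0% in mESC 1FA, 42.1%, 50.3% and 48.0% in 2FA, 39.7% and 40.6% in ActD4 and 53.0%, 44.8% and 55.7% in mOPC 1FA. The median distance along the mRNA was 449 nt in both mESC NPM libraries and 440 and 458 nt in mOPC NPM, against 1744 to 1841 nt in mESC 1FA and 1180 to 1500 nt in mOPC 1FA. A smaller peak close to the RNA tag on the 5′ side was also present in the other groups. Intron tags leaned to the same side in NPM, by position on the genome. Their own-gene DNA tag 1 to 100 kb away was 5′ in 85.2% and 91.0% in mESC NPM. It was 5′ in 88.7% and 88.7% in mOPC NPM, against 32.8% to 33.8% in mESC 1FA. These measures were added after the data were seen, and whether the DNA tags were genomic DNA or DNA copied from the RNA was not tested.

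**Figure D3:**
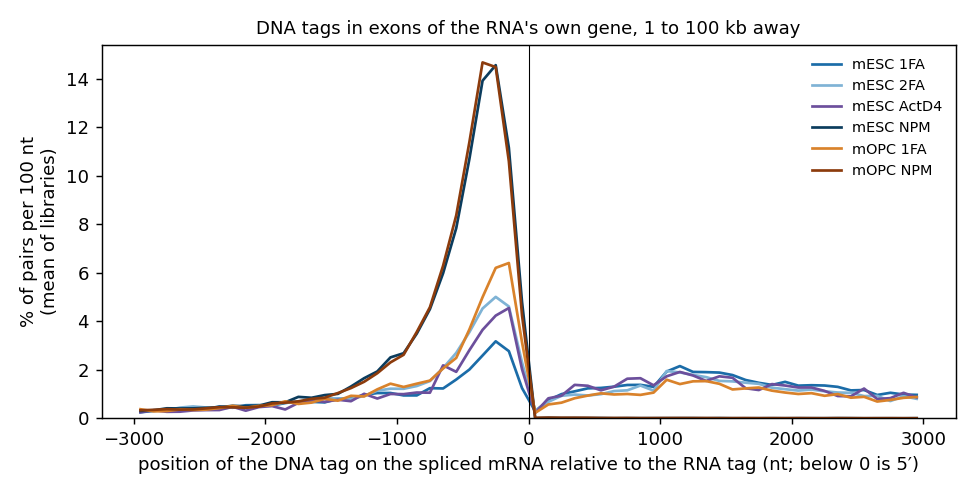
Position of the DNA tag on the spliced mRNA relative to the RNA tag (nt, below 0 is 5′) for CDS interactions with an exon of the RNA's own gene 1 to 100 kb away on the genome; the vertical axis is the percentage of such pairs per 100 nt, averaged over the libraries of a group. Both NPM groups form 1 peak on the 5′ side and lie at the axis on the 3′ side, where 99.7% to 99.9% of their pairs are 5′.

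CDS tags also differed between groups at the edges of exons. In exons of at least 120 nt, the tag density with the centre under 9 nt inside the exon start, where a tag of 27 nt must reach into the intron, was compared with the density 20 to 59 nt inside. It was 53.7%, 59.5% and 64.1% of the inside density in mESC 1FA, 60.9%, 64.6% and 62.1% in 2FA, 40.1%, 43.1% and 44.6% in mOPC 1FA, 26.5% and 28.4% in ActD4, 14.5% and 19.2% in mESC NPM and 15.2% and 22.4% in mOPC NPM. The 1FA, ActD4 and NPM libraries of mESC did not overlap, in that order. Over both lines NPM differed from 1FA by -33.0 points at exon starts and by -36.4 points at exon ends (both exact permutation p = 0.02, the smallest possible, adjusted p = 0.192). At exon ends the tags crossing the edge reached 64.7% to 68.0% of the inside density in mESC 1FA and 22.3% and 30.8% in mESC NPM.

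**Figure D4:**
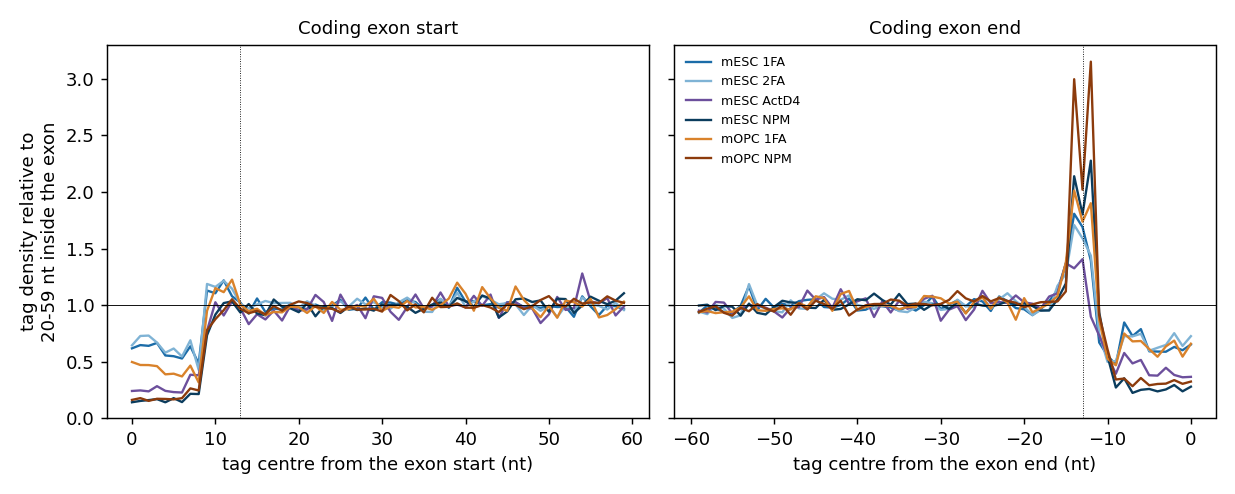
Density of CDS tag centres relative to the mean 20 to 59 nt inside the exon, against the distance (nt) of the tag centre from the start (left) and the end (right) of coding exons; lines are group means and dotted lines mark 13 nt, where a tag of 27 nt reaches exactly to the edge. Density falls at centres that reach past the edge, least in mESC 1FA and 2FA and most in NPM, and peaks where tags end at the exon end.

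Tags whose end fell at an exon's last bases, as placed from the tag centre and a length of 27 nt, were over-represented. The density with the tag's end at the exon end was 1.77, 1.49 and 1.63 times the inside density in mESC 1FA, 2.01 and 2.13 times in mESC NPM, 2.00, 1.90 and 1.75 times in mOPC 1FA, 1.93 and 3.52 times in mOPC NPM and 1.21 times in both ActD4 libraries. Tags ending there numbered 26387 at 15035 exon ends. The 3 exon ends with the most such tags that are not shared with another gene are shown as the last 27 exon bases in lower case with the first 3 intron bases in capitals, mm10, 5′ to 3′ on the RNA's strand, because the intron bases mark the splice donor.
Smyd3, chr1:179517785-179517814, minus strand: cgtagtctgtgatcgctgcctactgggGTA
Rngtt, chr4:33356170-33356199, plus strand: catttatcaaatactcttttggatgggGTA
Rbfox2, chr15:77306361-77306390, minus strand: gaggaggcggccgacggcgggatgcagGTG
The Smyd3 end had 94 such tags, against 28 with their centre 20 to 59 nt inside and 3 that crossed it. The Rngtt end had 49, against 0 inside and 0 across. Of the coding exon ends of the annotation read from the genome, 98.9% were followed by GT.

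Tags were not spread evenly along the coding sequence. Of all CDS tags of a library, 15.1% lay in the first 10% of their gene's CDS in mESC 1FA, as a group mean. The share was 14.9% in 2FA, 21.4% in ActD4 and 14.9% in mOPC 1FA, but 6.97% with NPM in mESC and 7.08% with NPM in mOPC. Genes with many tags weigh most in these shares. The first coding exon held 15.8%, 15.4% and 15.6% of the tags in mESC 1FA where it made up 10.2% to 10.8% of the coding bases, and 22.3% and 22.2% in ActD4 against 10.9%. In mESC NPM it held 6.84% and 7.02% against 9.22% and 8.92% of the coding bases. Thus the 5′ end was over-represented outside NPM and under-represented in NPM, where the last 10% held 9.24% and 9.02% of mESC tags. NPM differed from 1FA in the first 10% by -7.98 points over both lines (exact permutation p = 0.02, the smallest possible, adjusted p = 0.192).

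CDS interactions were listed for 13276 genes and were spread over many of them. The 10 genes with the most held 3.61% of the CDS interactions of mESC 1FA, 4.63% in ActD4, 4.58% in mESC NPM, 4.66% in mOPC 1FA and 4.06% in mOPC NPM, and 50% were reached with 588 (ActD4) to 889 (mOPC NPM) genes. The number of tags rose with coding length, with a Spearman correlation across genes of 0.468 to 0.517 by group, where genes are not independent replicates. The genes with the highest mean share over the 6 groups were Dst, Macf1, Ankrd11, Srrm2, Tet1, Bptf, Prrc2c, Cad, Syne1 and Dido1, chosen by this share.

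Dst, which encodes the giant cytoskeletal linker dystonin (chr1:33908225-34308661, plus strand, 29.476 kb of coding sequence), had the most CDS interactions. It was listed with 1507, 787 and 1036 in mESC 1FA, 675, 379 and 509 in 2FA, 485 and 315 in ActD4, 384 and 580 in mESC NPM, 742, 650 and 427 in mOPC 1FA, with 1092 and 930 in mOPC NPM. It was high in every group, at 169 to 361 CPM per coding kb as group means. Macf1, a related linker of actin and microtubules, was listed with 1181, 643 and 826 in mESC 1FA and 186, 167 and 101 in mOPC 1FA. Per coding kb other genes stood higher, and Tet1, which oxidises 5-methylcytosine, reached 624 CPM per coding kb in mESC 1FA against 27.6 in mOPC 1FA. Cad, the enzyme that starts pyrimidine synthesis, showed the opposite order, with 33.5 in mESC 1FA and 778 in mOPC 1FA. Syne1, a nuclear envelope linker of the nesprin family, was at 4.1 in mESC 1FA and 303 in mOPC 1FA. Srrm2, a splicing factor with a coding exon of 6569 nt, had 59.1% of its CDS and intron interactions in the CDS in mESC 1FA, against 24.9% for Dst and 14.9% for Tet1.

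Gene by gene, CDS interactions were compared on the log2 scale of CPM, with a prior count of 0.5 added, which understates changes of low genes. All p-values adjusted for this test and for the ratio of CDS to intron interactions below come from limma with Benjamini-Hochberg adjustment, called under 0.05. A gene was tested for CDS interactions when it reached 10 in as many libraries as the smaller group has. This minimum is a raw count, so a gene that reached it in 1 group alone was in part selected to be high there. Where the lists differ in size such a gene could still be called higher in the other group, as 1 endoplasmic reticulum chaperone was in ActD4. List counts are given with the members that reached the minimum in both groups. For the ratio the minimum was 10 CDS and 10 intron interactions, each in as many libraries, but not in the same group. A gene could thus enter with its CDS tags mainly in 1 group and its intron tags mainly in the other. That favours 1 direction of the ratio, and the ratio counts below were not split by it. The largest rises and falls named are those among called genes with a mean of at least 50 CDS interactions in the higher group and no overlap between groups. The mESC 1FA libraries are shared by the comparisons with mOPC 1FA, 2FA, ActD4 and mESC NPM. Where a group of 2 libraries was cut to 1 library, the spread came from the other group alone.

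Between the cell lines in 1FA, 817 genes had more CDS interactions in mOPC and 963 fewer of 3036 tested (58.6% called, 26.9% higher and 31.7% lower). The genes that rose most by the rule for named genes were Cntn1, Nav3, Ptprz1, Sox6 and Bcas1. Cntn1, a neural adhesion protein, was listed at 0 in all 3 mESC 1FA libraries and with 168, 193 and 148 in mOPC. Ptprz1, a receptor phosphatase of oligodendrocyte progenitors, was at 0 in mESC and at 175, 129 and 92 in mOPC. Sox6, a transcription factor of the same lineage, was listed with 0, 1 and 0 against 171, 174 and 148 (log2 change 8.76, SE 0.43, adjusted p = 6.11e-07). Nav3, a neuron navigator, and Bcas1, a marker of early myelinating cells, were at 0 in mESC and at 99 to 148 and 77 to 139 in mOPC. The falls were led by Etl4 (404, 171 and 241 against 0 in mOPC), the dynein Dnah8, the calcium channel Cacna1a, Gli2 and Zdbf2, all listed at 0 in all mOPC 1FA libraries. Scaled by the total of CDS interactions the calls were 657 higher and 1205 lower, with a median over tested genes of -0.50, and scaled by all interactions of the library 390 higher and 1773 lower, with a median of -1.25.

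The marker lists were tested only through the line that they mark: of 38 mOPC markers the 11 tested reached the count minimum in mOPC 1FA alone, and of 30 mESC markers the 9 tested reached it in mESC 1FA alone, so their calls (11 higher and 8 lower) follow from the levels given above. The mESC markers called lower included the pluripotency factors Esrrb (135, 92 and 103 against 0 in mOPC), Zfp42 (132, 52 and 83 against 0) and Sall4 (69, 62 and 68 against 0). Of markers of other cell types, no astrocyte, mature oligodendrocyte, endoderm and mesoderm or fibroblast marker had enough CDS interactions to be tested, and Map2, a neuronal microtubule protein, was the only neuron marker tested, with 4, 1 and 3 against 92, 85 and 45, so that it reached the minimum in mOPC alone. Replication-dependent histone genes made up 546 to 839 CPM in mESC 1FA and 0 to 76 CPM in mOPC 1FA, and the 4 tested reached the minimum in mESC alone.

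**Figure D5:**
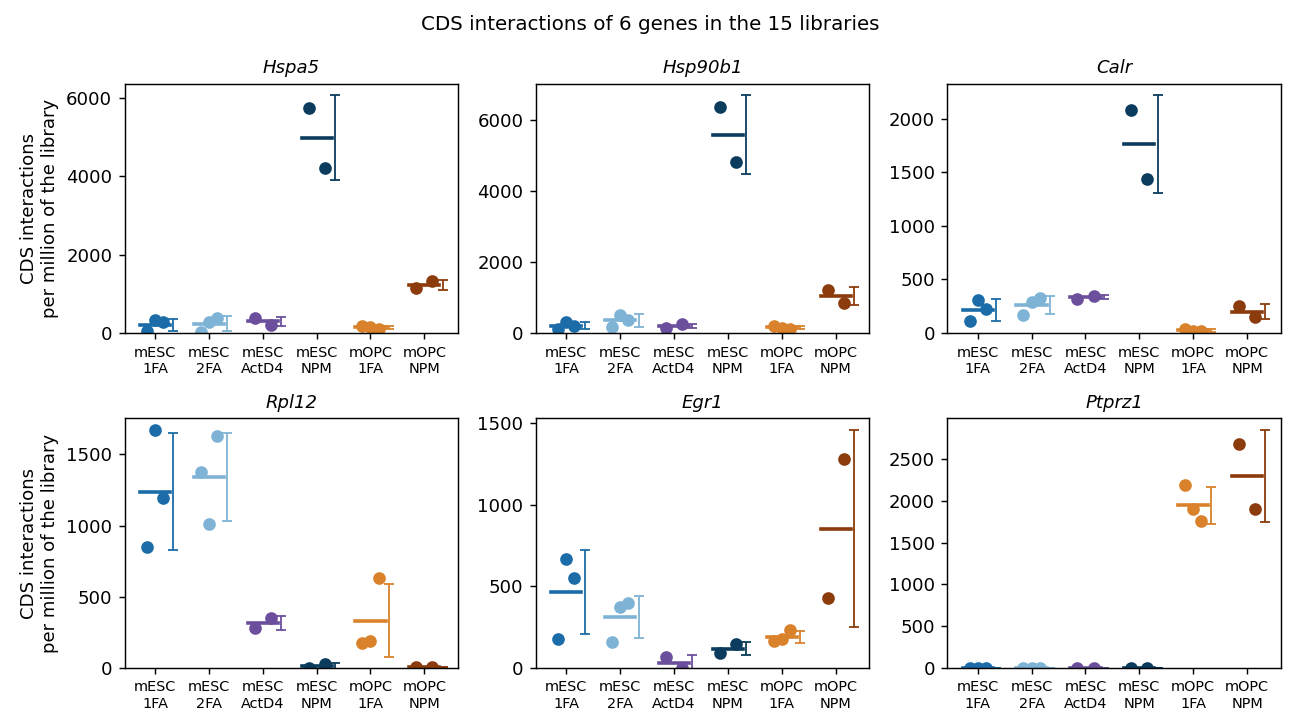
CDS interactions in CPM of the library for 6 genes in the 15 libraries by group; points are libraries, horizontal lines means and vertical bars 1 SD, and each panel has its own axis from 0. The chaperones Hspa5, Hsp90b1 and Calr are highest in mESC NPM, Rpl12 is high in mESC 1FA and 2FA and near 0 in NPM, Egr1 is highest in mOPC NPM with libraries far apart, and Ptprz1 is listed at 0 in all mESC libraries.

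The ratio of CDS to intron interactions changed in fewer genes between the lines, with 106 higher and 134 lower in mOPC 1FA of 2976 tested (8.06% called, 3.56% higher and 4.5% lower) and a median of -0.34. Prune2 rose most among genes with enough tags (CDS 2, 5 and 6 against 85, 95 and 53, log2 ratio change 2.78, SE 0.40, adjusted p = 0.00101). Plec, the cytolinker plectin, which overlaps Parp10 on the same strand so that their tags may be shared, fell by 1.58, with CDS interactions of 289, 127 and 160 against 111, 94 and 39. Zfhx2, Ahnak, Dlc1 and Mtus1 also fell, by 3.06, 2.05, 1.87 and 1.49, but had at most 2 CDS interactions in any mOPC 1FA library, so these values rest in part on the 0.5 added. The sign for Ahnak turned to 0.55 when contacts with its own gene were left out.

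Between 1% and 2% formaldehyde, limma called no gene in either test. Of 2994 genes tested for CDS interactions, 191 had an unadjusted p under 0.05 (0.0% called), and of 2934 tested for the ratio, 493 did (0.0% called), with a median ratio change of -0.43. Libraries with the same replicate number deviated together in these groups, and with the replicate number as a block 1 gene was called for CDS interactions and 442 for the ratio, all 442 lower in 2FA. Without the 2FA library of replicate 1, and no block, 257 genes were called for the ratio and 4 for CDS interactions.

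After actinomycin D, 250 genes had more CDS interactions and 300 fewer of 3285 tested (16.7% called, 7.61% higher and 9.13% lower). The ratio to introns rose in 1619 and fell in 21 of 3203 genes tested (51.2% called, 50.5% higher and 0.656% lower), with a median of 1.14. Dync1h1, the heavy chain of cytoplasmic dynein, was listed with CDS tags in overlapping numbers (249, 105 and 118 in 1FA, 164 and 111 in ActD4) while its intron tags went from 343, 318 and 307 to 64 and 37 (log2 ratio change 2.61, SE 0.32, adjusted p = 0.000371). In Jarid2, a subunit of the Polycomb repressive complex PRC2, CDS interactions went from 447, 245 and 309 to 99 and 68 and intron interactions from 12725, 12874 and 15773 to 1047 and 612, from lists of 116755 to 172888 CDS interactions against 46858 and 28846. Relative to those lists its CDS interactions did not pass the test (log2 change 0.10, SE 0.16, adjusted p = 0.682), and its log2 ratio change was 2.13. The ratio also rose in Chd2 (2.05), Sf3b3 (2.03) and Tango6 (2.02), and it fell in Egr1 (-2.04), Rpl12 (-1.37), Erf (-1.11) and Srsf6 (-1.09), of which only Rpl12 had 10 or more CDS interactions in an ActD4 library. Among the genes with a mean of at least 50, the largest relative rises in CDS interactions were those of Lrp1, an endocytic receptor (49, 44 and 35 against 54 and 47, log2 change 2.32, SE 0.24, adjusted p = 0.00227), and Dync1h1 (1.97, SE 0.24, adjusted p = 0.00235), followed by Sipa1l3, Rptor and Rnf213. Under the same limit the largest falls were those of Egr1, Tsc22d1 (84, 74 and 77 against 3 and 3, -2.55, SE 0.28, adjusted p = 0.00227), L1td1 (163, 82 and 103 against 8 and 3), Ktn1 and Bnc2.

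The counts for ActD4 depended on single libraries and on scaling. Without the library of ActD4 replicate 1, 1465 genes were called for CDS interactions and 2045 for the ratio, and without mESC 1FA replicate 3, 160 and 942. Scaled by all interactions of the library, 1099 genes rose and 122 fell, with a median of 0.76, and scaled by the total of CDS interactions 197 rose and 384 fell, with a median of -0.28. The ActD4 libraries differed from each other no more than counting error in CDS interactions per gene (chi-square per degree of freedom 1.04), while they shared 13 identical CDS interactions and differed in the share within 1 kb, and they were kept as 2 libraries.

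Immediate early genes have short-lived transcripts that are induced within minutes of a stimulus. After actinomycin D 3 of the 5 tested were called higher and 1 lower, beside 7.61% higher and 9.13% lower over all genes tested. Of these only Jund reached the count minimum in both groups. The others were called higher in the group in which they reached it, a direction that this selection favours. Btg2, an antiproliferative cofactor, was listed with 1, 3 and 2 CDS interactions in mESC 1FA and 19 and 17 in ActD4 (log2 change 4.87, SE 0.59, adjusted p = 0.00227). Junb, a subunit of the AP-1 transcription factor, was listed with 8, 9 and 4 against 27 and 30 (4.04, SE 0.46, adjusted p = 0.00227), and Jund with 3, 19 and 14 against 34 and 16 (3.26, SE 0.72, adjusted p = 0.0174). Egr1, a zinc finger transcription factor, fell from 30, 78 and 78 to 3 and 0 (-4.38, SE 1.03, adjusted p = 0.0217), and lost its call without mESC 1FA replicate 1, 2 or 3. All 4 replication-dependent histone genes tested reached the minimum in mESC 1FA alone, and 3 were called lower (9.13% of all genes were), with Hist1h1c at 46, 15 and 21, Hist1h1a at 33, 17 and 17 and Hist1h1d at 24, 10 and 14 in mESC 1FA and all 3 listed at 0 in both ActD4 libraries (log2 changes of -5.14, -4.95 and -4.47, beyond those of the genes over the limit of 50). Of cytosolic ribosomal protein genes 2 of 6 fell, beside 9.13% of all genes, Rpl12 by 1.79 and Rps19, which reached the minimum in mESC 1FA alone, by 2.12. Zinc finger genes, many of them repressors with a long last exon, gave 5 higher and 15 lower of 78 (median -0.59), beside 7.61% and 9.13% of all genes. Of the 15 lower, 14 reached the minimum in mESC 1FA alone. Scaled by all interactions of the library, the zinc finger genes gave 19 higher and 7 lower, where 1099 of all 3285 genes rose and 122 fell.

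In mESC NPM against mESC 1FA, 712 genes had more CDS interactions and 776 fewer of 3574 tested (41.6% called, 19.9% higher and 21.7% lower). The ratio of CDS to intron interactions rose in 2314 and fell in 11 of 3447 genes (67.4% called, 67.1% higher and 0.319% lower), with a median of 1.59. Scaled by the total of CDS interactions 590 genes rose and 1010 fell in CDS interactions, with a median of -0.36, and scaled by all interactions 2202 rose and 83 fell, with a median of 1.39. Counting each transcript and bin once, 30 rose and 923 fell.

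Of the 5 genes that rose most by the rule for named genes, 3 encode chaperones or folding enzymes of the endoplasmic reticulum (ER). Hspa5, the Hsp70 chaperone BiP, was listed with 7, 39 and 38 CDS interactions in mESC 1FA and 516 and 431 in mESC NPM (log2 change 5.18, SE 0.63, adjusted p = 9.98e-05). Hsp90b1, the Hsp90 chaperone Grp94, went from 21, 36 and 29 to 573 and 492 (5.02, SE 0.33, adjusted p = 6.15e-06), and Pdia3, a disulfide isomerase, from 9, 10 and 5 to 84 and 67 (3.99, SE 0.39, adjusted p = 3.85e-05). Ftsj3, a methyltransferase of ribosome assembly (5, 5 and 3 against 89 and 64, 4.78, SE 0.40, adjusted p = 1.69e-05), and Ssb, the La protein that binds the ends of polymerase III transcripts (6, 3 and 4 against 87 and 36, 4.37, SE 0.46, adjusted p = 5.08e-05), completed the 5 largest rises. That the groups do not overlap in these genes follows from the rule. Pdia3, Ftsj3 and Ssb reached the count minimum in NPM alone, so in effect they could only rise.

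As a list, 11 of the 11 endoplasmic reticulum chaperones tested, of 16 members, rose in mESC NPM, where 19.9% of all genes did. Their median was 3.16 against -0.13 over all genes. All 11 also rose in the other scalings, where the values over all genes differed. Scaled by all interactions 2202 of 3574 genes rose, with a median of 1.39. Scaled by the total of CDS interactions 590 rose, with a median of -0.36. Of the 11 chaperones, 7 reached the minimum in both groups and 4 in NPM alone. The list was chosen with earlier results of these data known. It includes Hspa5 and Hsp90b1, named above for their rise, so the counts of this list are a description. Without each library in turn all 11 rose as well, with 12 tested without mESC NPM replicate 1. They made up 821 to 1704 CPM in mESC 1FA, 14986 to 19577 in mESC NPM, 604 to 874 in mOPC 1FA and 3690 to 5316 in mOPC NPM. In mOPC NPM 7 of 8 endoplasmic reticulum chaperones rose against mOPC 1FA (median 2.35, against 0.05 over all genes, of which 9.89% rose), of which 2 reached the minimum in both groups. Most of these calls were lost without either mOPC NPM library, which leaves that group with 1 library. Calls over all genes also dropped without replicate 1. Calr, the lectin chaperone calreticulin, rose by 3.34 in mESC (SE 0.37, adjusted p = 6.38e-05) and by 2.70 in mOPC (SE 0.59, adjusted p = 0.0106). Between the NPM libraries 8 of 11 endoplasmic reticulum chaperones were lower in mOPC (median -2.06, beside 15.1% of all genes), 6 of them among the 8 over the minimum in both groups, and 0 of 12 without either mOPC NPM library. Without own-gene contacts, 3 endoplasmic reticulum chaperones could be tested in mESC NPM and all 3 rose, and with each transcript and bin counted once 1 could be tested and was not called.

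Of the cytosolic chaperones 8 of 11 rose in mESC NPM (median 2.03, beside 19.9% of all genes), including all 7 that reached the minimum in both groups. Tcp1 rose by 3.33 and Cct8 by 2.98, both subunits of the chaperonin that folds actin and tubulin, and Hsp90ab1, the cytosolic Hsp90, rose by 2.58. In mOPC NPM 3 of 9 cytosolic chaperones rose, beside 9.89% of all genes, Hsp90ab1, Tcp1 and Cct2, where 2 of the 9 reached the minimum in both groups. With each transcript and bin counted once, 0 rose and 1 fell of 3 cytosolic chaperones in mESC NPM, where 30 of all 2167 genes rose and 923 fell. Of the translation factors 8 rose and 3 fell of 17 tested in mESC NPM, beside 19.9% and 21.7% of all genes, with Eif3a, the largest subunit of initiation factor eIF3, highest at 3.59 (72, 38 and 59 against 485 and 296) and Eif1 lowest at -4.14. Of the 11 over the minimum in both groups 7 rose and 0 fell, and the 3 that fell reached it in mESC 1FA alone. In mOPC NPM 5 translation factors rose and 1 fell of 13 (3 and 1 of the 5 over the minimum in both groups), beside 9.89% and 17.3% of all genes, and none was called without either mOPC NPM library. Of genes of glycolysis and cytoskeleton 3 could be tested in each line, of which Tubb5, a tubulin, rose in both (1.62 and 1.74) and Vim, vimentin, in mOPC (3.05), where all 3 reached the minimum in NPM alone. With each transcript and bin counted once, 0 translation factors rose and 3 fell of 11 in mESC NPM, beside 30 higher and 923 lower of all 2167 genes.

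Splicing regulators gave 14 higher and 0 lower of 23 in mESC NPM (median 0.94), beside 19.9% and 21.7% of all genes. All 14 were among the 20 over the minimum in both groups, led by Hnrnph1 at 3.29 and Pnisr at 2.67. With each transcript and bin counted once they gave 0 higher and 14 lower of 17. That setting leaves few counts to a gene whose contacts lie in few bins, as in NPM. Counted once, 30 of all 2167 genes tested rose and 923 fell. In mOPC NPM 2 of 21 splicing regulators rose, Rbm25 and Srrm2, which is near the 9.89% of all genes. Zinc finger genes gave 8 higher and 24 lower of 80 in mESC NPM (median -0.49), beside 19.9% and 21.7%, and 5 higher and 17 lower of 65 in mOPC NPM (median -0.37), beside 9.89% and 17.3%. Over the minimum in both groups, the zinc finger genes gave 5 higher and 10 lower of 34 in mESC NPM and 1 and 14 of 36 in mOPC NPM. When scaled by all interactions of the library, the counts over the list turned to 38 higher and 1 lower and to 51 higher and 0 lower. All genes moved as well at that scaling, with 2202 higher and 83 lower of 3574 in mESC NPM and 2735 and 19 of 3327 in mOPC NPM. Of replication-dependent histone genes 4 of 5 rose in mESC NPM, 3 of them among the 4 over the minimum in both groups. The fourth riser, the linker histone gene Hist1h1e, reached it in NPM alone, with 9, 2 and 0 against 46 and 31 (4.77, adjusted p = 0.0011). Of the histone genes 1 of 5 rose when scaled by the total of CDS interactions or without mESC 1FA replicate 2 or 3 or mESC NPM replicate 1. Of cytosolic ribosomal protein genes Rpl8 rose by 1.35 and Rpl12 and Rps19 fell by 6.58 and 2.62 of 6 tested, both over the minimum in mESC 1FA alone.

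The falls in mESC NPM were led by Rpl12, with 147, 195 and 169 CDS interactions against 0 and 3 (-6.58, SE 0.67, adjusted p = 4.45e-05), at the gene whose most frequent tag is shown above. Ccdc85c (59, 41 and 56 against 1 and 1), the deacetylase Hdac4 (129, 82 and 91 against 5 and 5), the oxidoreductase Wwox (212, 92 and 126 against 5 and 10) and the repressor Zbtb7a followed. Wwox, a gene with very long introns, was listed with 18918, 15018 and 17534 intron interactions in mESC 1FA and 1166 and 1994 in mESC NPM. In the ratio test Pdia3 rose most (5.07), followed by Nudc (5.02), Arglu1 (5.01, SE 0.42, adjusted p = 1.8e-06), Eif3a (4.78) and Calu (4.65). Arglu1, a splicing and transcription cofactor, went from 22, 10 and 29 to 92 and 83 CDS interactions and from 286, 274 and 355 to 36 and 51 intron interactions. Rpl12 fell in the ratio too (-4.54), with at most 3 CDS and 2 intron interactions in an NPM library, and Ccdc85c by 1.78, which turned to 0.69 without own-gene contacts.

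In mOPC NPM against mOPC 1FA, 329 genes had more CDS interactions and 577 fewer of 3327 tested (27.2% called, 9.89% higher and 17.3% lower). The ratio to introns rose in 2536 and fell in 6 of 3082 genes (82.5% called, 82.3% higher and 0.195% lower), with a median of 1.93. Scaled by the total of CDS interactions 450 rose and 462 fell, with a median of 0.23, and scaled by all interactions 2735 rose and 19 fell, with a median of 2.15. Without mOPC NPM replicate 1 the calls for CDS interactions dropped to 187 in all.

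Under the limit of a mean of at least 50, the largest rises in mOPC NPM were those of Canx, the lectin chaperone calnexin (4, 6 and 5 against 216 and 74, 3.19, SE 0.43, adjusted p = 0.00131), Ssrp1, a subunit of the histone chaperone FACT (6, 1 and 3 against 78 and 65), Dtx3, Maged1 (12, 4 and 6 against 179 and 126) and Myc, a transcription factor of growth (3, 1 and 5 against 84 and 43). Below that limit Hist1h1e, the 1 replication-dependent histone gene tested, was listed at 0 in all mOPC 1FA libraries and with 57 and 36 in mOPC NPM, so that it reached the minimum in NPM alone (log2 change 5.87). The falls were those of Xylt1, the enzyme that starts glycosaminoglycan chains (247, 294 and 240 against 55 and 45, -3.77, SE 0.24, adjusted p = 0.000182), Atrnl1, Exoc4, Agap1 and Ext1. Xylt1 was also among the 6 genes whose ratio to introns fell (-0.85), with its introns at 6455, 7219 and 7307 against 2397 and 2457, and its sign turned to 0.88 when each transcript and bin was counted once. The ratio rose most in Rc3h2 (4.76), Arglu1 (4.51), Psap (4.17), Nfat5 (4.03) and Gm45234 (4.02), of which Gm45234 overlaps Atn1 and Grcc10 on the same strand and may share their tags.

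Erbb2, the gene of the receptor whose activated form immortalised the mOPC line, had 9, 8 and 10 CDS interactions in mOPC 1FA against 180 and 160 in mOPC NPM (log2 change 2.79, SE 0.30, adjusted p = 0.000735), with 0, 7 and 9 against 5 and 10 intron interactions. In mESC NPM it was listed with 0 and 3 CDS and 6 and 13 intron interactions. Whether its tags came from the cell's own gene or from the t-neu transgene was not tested.

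Of immediate early genes 4 rose and 1 fell of 9 in mOPC NPM, beside 9.89% and 17.3% of all genes, Myc by 3.01, Jund by 2.36, Fos by 1.99 and Egr1 by 1.77, with Fosl2 lower by a log2 change of -1.36. Of the 3 over the minimum in both groups 1 rose and 1 fell, and the other 6 reached it in NPM alone. Without mOPC NPM replicate 1, 1 immediate early gene was called, and without replicate 2 none. The mOPC markers gave 2 higher and 5 lower of 19, beside 9.89% higher and 17.3% lower over all genes tested. Over the minimum in both groups were 12 of the 19, which held all of these calls, and 7 reached it in NPM alone. The 5 lower were Sox6 (-1.91), Lhfpl3 (-1.72), Ncald (-1.71), Pcdh15 (-1.32) and Tnr (-0.97). Of the 2 higher, Bcan, the proteoglycan brevican, rose from 15, 9 and 23 to 276 and 145 (2.34, adjusted p = 0.00534) and Vcan, versican, from 40, 30 and 15 to 220 and 141 (1.32). When scaled by all interactions 15 mOPC markers rose and 0 fell, where 2735 of all 3327 genes rose and 19 fell.

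Between the NPM libraries of the lines, 766 genes had more CDS interactions in mOPC and 544 fewer of 3597 tested (36.4% called, 21.3% higher and 15.1% lower). Scaled by all interactions of the library the split was 553 higher and 777 lower, with a median of -0.35. Leaving out mOPC NPM replicate 1 left 325 higher and 95 lower, mOPC NPM replicate 2 left 450 and 97, and mESC NPM replicate 1 left 575 and 201. By list 19 of 20 mOPC markers were higher, 18 of them over the minimum in mOPC alone, and 9 of 10 mESC markers lower, all 9 over the minimum in mESC alone. Ptprz1 (0 and 0 against 470 and 256), Cntn1 (0 and 0 against 379 and 134), Myt1 (0 and 0 against 207 and 178), Ank2 (0 and 0 against 200 and 158) and Col11a1 (0 and 0 against 212 and 136) led the rises. Col4a1, a basement membrane collagen (167 and 145 against 0 and 0), Cubn (80 and 146 against 0 and 0), L1td1 (139 and 67 against 0 and 0), Zdbf2 and Piezo1 led the falls. Between the NPM groups the ratio to introns changed in few genes, with 14 higher and 79 lower of 3253 tested (2.86% called, 0.43% higher and 2.43% lower). Without mESC NPM replicate 2 that number was 26 in all, and without mOPC NPM replicate 2 it was 139.

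Dst was among the 5 genes with the most trans CDS interactions in all 6 groups, with 5, 11 and 5 in mESC 1FA, 16 and 43 in mESC NPM, 19, 14 and 19 in mOPC 1FA, with 20 and 25 in mOPC NPM. St13, a cochaperone of Hsp70, was listed with 29 and 20 trans interactions in mESC NPM and with 4 and 8 in mOPC NPM. Ankrd11, a chromatin regulator, had 21 and 25 in mESC NPM, Tet1 9 and 37 and Macf1 15 and 26. In mOPC NPM, Cntn1 had 38 and 11, Cad 20 and 13, Kmt2d, a histone H3 lysine 4 methyltransferase, 11 and 17 and the vitamin transporter Slc5a6 17 and 10. In mOPC 1FA, Son, a splicing cofactor, had 20, 6 and 5 and the dynein Dync2h1 10, 8 and 7. The bin on chromosome 17 held 4 and 30 of the Dst, 12 and 16 of the Ankrd11, 4 and 29 of the Tet1 and 7 and 16 of the Macf1 interactions in mESC NPM, but 0 and 3 of those of St13. It held 4, 8 and 3 of the Dst interactions in mESC 1FA, but none of the Dst, Son and Dync2h1 interactions in mOPC 1FA. These counts are of few interactions each and were not tested. They were not scaled to a gene's total of CDS interactions, which was highest for Dst.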

How the data were processed

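RADICL-seq was analysed in 15 libraries of 6 groups, which the labels enter as 32 RNA and DNA samples, among them a resequenced pair for which no table was used here. Per the methods, the authors extracted the tags of 27 nt, removed ribosomal RNA and duplicates, aligned with BWA 0.7.15-r1140 to mm10 without splicing, kept unique tags, reduced them to their centre, assigned RNA tags by strand to GENCODE regions and tested transcript and 25-kb bin pairs. The submitters' notes also name CASAVA 1.8. The deposited tables have 32 columns and no header, with 1 line per interaction: positions of both tags and the deposited p-value and adjusted p-value of the pair, the same in all replicates of a group. The tables hold no read counts, so the sequencing depth of a library cannot be read from them, and sequencing totals given elsewhere by the study were not used.

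Interactions were made distinct over 6 columns and counted per library, gene and region. Lengths, exons and symbols came from a later GENCODE annotation of the same build, in which 11 gene IDs had no match. Shares were compared by exact two-sided permutation over libraries, with Benjamini-Hochberg adjustment over comparisons (and classes or measures). Per gene, limma 3.58.1 (R 4.3.3, lmFit and eBayes with a trend) was fitted to log2 CPM of CDS interactions with TMM factors and a prior count of 0.5, for genes with at least 10 CDS interactions in as many libraries as the smaller group has, and to log2 ratios of CDS to intron counts with 0.5 added and at least 10 of each. Calls were made at an adjusted p under 0.05. The scripts used Python 3.11.15 with pandas 2.3.3, numpy 2.4.6, scipy 1.17.1 and matplotlib 3.10.9 and were tested on simulated data.

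Named genes were the 10 with the highest mean share over groups, per comparison and test the 5 largest rises and 5 largest falls among called genes with a mean of at least 50 CDS interactions in the higher group and no overlap, the 5 with the most trans interactions per group, list members, and the 10 most frequent positions. The members and lists were chosen with earlier results of these data known, and list members named for their change were picked after their values were seen. The lists were mitochondrial mRNAs, translation factors, glycolysis and cytoskeleton, immediate early genes, endoplasmic reticulum and cytosolic chaperones, splicing regulators, markers of mESC, mOPC and other cell types, histone, ribosomal protein and zinc finger genes, and genes with 1 coding exon or a coding exon of at least 3 kb.

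Replicate numbers come from the titles. The deviations of same-numbered mESC 1FA and 2FA libraries from their group means correlated by 0.219, 0.216 and 0.204 across genes, so those libraries were treated as paired in a second fit with the replicate number as a block. In no other comparison was every such correlation over 0.1. Alternatives changed the unit counted, own-gene contacts, top genes, repeats, pair size, the most contacted trans bin, mitochondrial RNA, biotype, filter, prior count, scaling, samples in the fit, weights and replicates.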

Additional observations from a re-analysis of the deposited data

Results flagged for a closer look

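In 5 genes the change of CDS interactions from 1FA to NPM differed between the lines by a limma test of the difference itself, run after the data were seen, with Benjamini-Hochberg adjustment over all genes tested. The difference came from a fit over both lines together, with its own scaling. The changes in brackets come from the separate fits above, so they do not subtract exactly to the difference. The log2 change in mOPC minus that in mESC was -3.16 for Ftsj3 (4.78 in mESC, 1.45 in mOPC, adjusted p = 0.0241), a methyltransferase of ribosome assembly. It was -2.35 for the ER chaperone Hsp90b1 (5.02 and 2.51, adjusted p = 0.0263) and -2.10 for the translation initiation factor gene Eif3a (3.59 and 1.34, adjusted p = 0.0254). It was 3.46 for the immediate early gene Egr1 (-1.54 and 1.77, adjusted p = 0.0254) and 3.23 for Gm45234 (-0.41 and 2.67, adjusted p = 0.0138), which overlaps Atn1 and Grcc10 on the same strand. The genes are those named elsewhere for another reason among 38 called of 2232 tested, of which 14 were higher and 24 lower. Without mESC NPM replicate 1 the test called 2 genes and without mESC NPM replicate 2 it called 150.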

How the results depend on the processing

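Of 82 shares and densities, 1025 values under the alternatives kept their direction and 12 reversed. No comparison between groups had an adjusted p below 0.08 as reported, so their side of the threshold says nothing about stability. For named genes 1312 values kept their direction and call, 112 lost their call, 4 gained one and 13 reversed. The cause of these changes was not tested. With each transcript and bin counted once, the trans share of CDS minus that of introns turned to 0.0947 points in mESC NPM against 1FA. Without own-gene contacts, the CDS share within 1 kb turned to -0.0319 points in mOPC 1FA against mESC 1FA, and CDS minus intron within 1 kb turned to -0.0179 for that comparison, 0.574 for ActD4, 2.64 and 24.9 for mESC and mOPC NPM, 13.8 for NPM over both lines and 4.00 over the 15 libraries. Without the bin most contacted in trans, the CDS trans share turned to 0.136 points in mOPC 1FA, 0.00253 in ActD4 and 0.0365 in mOPC against mESC over 1FA and NPM, and CDS minus intron to 0.0128 in ActD4.

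Genes called for CDS interactions numbered, with no filter on low counts, 3938 between the lines in 1FA, 3 in 2FA, 1331 in ActD4 and 2251 between the NPM groups, and with a minimum of 20, 1060 between the lines and 844 between the NPM groups. Scaled by all interactions they were 1221 in ActD4, 2285 in mESC NPM and 2754 in mOPC NPM. With each transcript and bin counted once they were 953 in mESC NPM and 36 of 42 tested between the NPM groups, where leaving out own-gene contacts gave 15 of 28. For the ratio, no filter gave 1541 between the lines, 3508 in ActD4 and 0 between the NPM groups, and a minimum of 20 gave 130, 1461 (mESC NPM), 1438 (mOPC NPM) and 48 (NPM groups). A prior count of 2 gave 477 between the lines. Counted once, the ratio calls were 1 in 2FA, 571 in ActD4, 1382 in mESC NPM, 822 in mOPC NPM and 22 between the NPM groups, and without own-gene contacts 815 in mOPC NPM and 5 between the NPM groups. The interaction test called 81 genes with a prior count of 2, 184 counted once and 256 without own-gene contacts. Fewer genes could be tested under the last 2 settings by construction.

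With the replicate number as a block, the CDS calls were 1 in 2FA and 256 in ActD4, and the ratio calls 442 in 2FA, 884 in ActD4 and 218 between the NPM groups. Outside 2FA the numbers do not pair the libraries, and other block counts lay within 1.5 times.

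Leaving out 1 library, the CDS calls ranged from 0 to 4 in 2FA, 160 (mESC 1FA replicate 3) to 1465 (ActD4 replicate 1) in ActD4, 187 (mOPC NPM replicate 1) to 919 in mOPC NPM and 420 (mOPC NPM replicate 1) to 1052 between the NPM groups. The ratio calls ranged from 0 to 257 in 2FA, 942 to 2045 in ActD4 and 26 to 139 between the NPM groups, and the interaction calls from 2 to 150. Hist1h1c in mESC NPM ranged from -0.0584 to 0.59.

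Of named genes in mESC NPM, the log2 change reversed when counted once for Hspa4 (-0.67), Eif3a (-0.16), Srrm2 (-0.83) and Eif4g1 (-0.31), when scaled by all interactions for Son (1.31), Zfp292 (1.44) and Zfp407 (0.0674), and with no filter for Hist1h1c (-0.0227). Scaling by all interactions moved the median over all tested genes there from -0.13 to 1.39, and counting once moved it to -0.55. Counted once, a gene keeps few counts where its contacts lie in few bins, as in NPM. The signs under that setting therefore follow in part from the distances. The ratio reversed without own-gene contacts for Ahnak (0.55, mOPC 1FA), Ccdc85c (0.69, mESC NPM) and Xylt1 (0.38, mOPC NPM), and counted once for Xylt1 (0.88). Leaving out ambiguous tags changed nothing, since no interaction was listed with more than 1 RNA gene or region. The number of reads per interaction is not in the tables, so the reads behind low counts, as for trans contacts of single genes, are unknown.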

Other observations

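The mRNAs of the mitochondrial genome, which have no introns and encode subunits of the respiratory chain, had CDS tags for 7 of 13 genes. They made up 35.4 to 52.1 CPM in mESC 1FA, 187 to 1030 in 2FA, 206 to 2763 in mESC NPM, 572 to 1749 in mOPC 1FA and 999 to 2128 in mOPC NPM, and were listed at 0 in ActD4. Libraries of 1 group differed by more than 10 times in mESC NPM. None of the 6 mitochondrial mRNAs tested between mOPC 1FA and mOPC NPM was called by limma, nor any of the 5 tested between the NPM groups.

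Genes with 1 coding exon gave 16 higher and 11 lower of 58 tested in mESC NPM against mESC 1FA, beside 19.9% higher and 21.7% lower over all genes tested. Over the count minimum in both groups they gave 8 higher and 3 lower of 24. They gave 39 higher and 15 lower of 93 in mOPC NPM against mESC NPM, beside 21.3% and 15.1%, with 38 of the 39 over the count minimum in mOPC alone and 12 of the 15 in mESC alone. Genes with a coding exon of at least 3 kb gave 30 higher and 34 lower of 121 in mESC NPM, near the shares over all genes (25 and 24 of the 95 over the minimum in both groups), and their ratio to introns rose in 85 and fell in 2 of 111, beside a rise in 67.1% of all genes tested. Of markers of other cell types, no astrocyte or fibroblast marker could be tested in any comparison, and 1 marker of mature oligodendrocytes was tested between the NPM groups, Cnp, which reached the minimum in mOPC alone with 0 and 0 against 21 and 13. In mOPC NPM against mOPC 1FA 1 such marker was tested and not called. Between the NPM groups 2 neuron markers were tested, 1 called higher in mOPC and 1 lower, each over the minimum in the higher line alone. For endoderm and mesoderm 1 marker was tested in each of 2FA, ActD4 and mESC NPM against mESC 1FA, and none was called.

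CDS tags that crossed an exon edge were compared in distance with tags inside the exon. In mESC NPM 790 of 1001 and 1251 of 1518 crossing tags had their DNA tag within 1 kb, against 11177 of 24059 and 13404 of 26636 inside tags. In mOPC NPM the counts were 1749 of 2142 and 1909 of 2240 against 22571 of 45972 and 17756 of 32762. In ActD4 crossing tags also had the higher share, with 208 of 881 and 123 of 566 against 1666 of 11032 and 953 of 6852. In 1FA and 2FA the shares lay closer together. They were 326 of 5249, 372 of 3810 and 354 of 4692 crossing against 2032 of 39194, 2408 of 26518 and 1986 of 31601 inside tags in mESC 1FA. In mOPC 1FA crossing tags had the lower share in all 3 libraries, with 279 of 2153, 145 of 1859 and 159 of 1455 against 2814 of 18562, 1200 of 15296 and 1416 of 11608. In 2FA replicate 2 the order was also reversed, with 365 of 2489 against 2914 of 16927. The difference in shares was not tested.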
